A study of Mus musculus with 237 samples.

Results

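The Nuclear factor I (NFI) family of the mouse has the members Nfia, Nfib, Nfic and Nfix, which are 4 of the 36186 gene entries in a table of single-cell RNA sequencing of the embryonic kidney. All 4 were found in the table by gene symbol, each on 1 entry. Nfib was chosen by its difference in mean log2(RPKM + 1) between Pax2 mutant and cap mesenchyme cells at E13.5 (E gives the age in embryonic days), where it stood at rank 2 of 11449 genes, and its relatives were added by family name. That contrast therefore describes the choice, and its values for Nfib are given as a description.

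NFI proteins are transcription factors that share an amino-terminal domain for DNA binding and dimer formation. They bind as homodimers or heterodimers to a palindromic site, and they can activate or repress a promoter. In the mouse, Nfia acts in the onset of gliogenesis and its loss also affects the urinary tract, Nfib is required for lung maturation, Nfic for tooth root formation, and Nfix for the fetal programme of skeletal muscle and for brain development. In the developing kidney, nephrons arise from progenitor cells of the cap mesenchyme, which is embedded in stroma called the interstitium. Pax2 is a paired-box transcription factor needed for the nephron lineage.

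Nfib lies at chr4:82290173-82505308 on the minus strand and Nfia at chr4:97581943-98118876 on the plus strand. Nfic lies at chr10:81396191-81430794 and Nfix at chr8:84707599-84800340, both on the minus strand, all in mm10 coordinates of the deposited table. The coding sequences of the genes are related, and whether reads of 1 member were placed on another could not be checked. A stretch of the conserved second coding exon is therefore shown for each member. It was picked as the stretch of Nfib coding sequence within a single exon with the fewest mismatches summed over the other members, so its identities are not typical of the genes. The stretch is 120 bases long, is read 5′ to 3′ on the coding strand from GENCODE M21 transcripts on GRCm38 (the same assembly as mm10), and has capitals where a base differs from Nfib.
Nfib, chr4:82498353-82498472 (minus strand): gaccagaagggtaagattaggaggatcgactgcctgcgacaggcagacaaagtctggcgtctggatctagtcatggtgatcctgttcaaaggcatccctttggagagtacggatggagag
Nfia, chr4:97783379-97783498 (plus strand): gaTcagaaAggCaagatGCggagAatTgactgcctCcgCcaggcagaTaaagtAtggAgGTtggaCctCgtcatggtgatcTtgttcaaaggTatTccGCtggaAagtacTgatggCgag
Nfic, chr10:81420382-81420501 (minus strand): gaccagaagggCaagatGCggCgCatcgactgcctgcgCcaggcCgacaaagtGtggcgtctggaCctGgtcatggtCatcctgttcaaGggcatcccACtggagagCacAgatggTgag
Nfix, chr8:84771899-84772018 (minus strand): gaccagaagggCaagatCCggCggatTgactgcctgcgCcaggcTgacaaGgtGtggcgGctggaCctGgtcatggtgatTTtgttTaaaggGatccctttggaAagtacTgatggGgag
In this stretch Nfia differed from Nfib at 24 bases (80.0% identity), Nfix at 19 (84.2%) and Nfic at 17 (85.8%). Over all annotated transcripts, the longest run of bases shared without a mismatch was 25 between Nfia and Nfib, 32 between Nfic and Nfix, and 18 to 21 between the other pairs. Read length and the handling of reads that map to several places are not given in the sources used here.

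The study captured single cells of mixed-strain mouse kidneys, after proteolytic digestion and flow sorting, in a Fluidigm C1 microfluidic device. The labels place 236 of 237 cells in 5 groups. At E18.5 these were 44 Pax2 mutant cap mesenchyme cells, 71 wild-type interstitial cells and 74 wild-type cells of the cap mesenchyme or derived from it. At E13.5 they were 29 Pax2 mutant cap mesenchyme cells and 18 wild-type cells of the cap mesenchyme or derived from it. The titles of the interstitial cells, which are labelled wild type, carry the name FoxD1_GCE, and those of the E18.5 cap cells the name CTRL; the labels do not explain either name. They give neither the Pax2 allele, nor the marker used for the sort, nor the embryo a cell came from. By its title, the study is about the part of Pax2 in the boundary between the nephron and interstitial lineages. Because no animal is named, each group counts as 1 sample: no p-value was computed, SDs describe the spread between cells, and cells were not treated as replicates.

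Pax2 itself was listed at 0 in all 44 E18.5 mutant cells, and it reached 1 RPKM (reads scaled by the length of the transcript and by the total of mapped reads) in 56 of 74 E18.5 cap cells. At E13.5 it reached 1 RPKM in 17 of 29 cells labelled mutant and in 15 of 18 cap cells, so every direction drawn from the E13.5 mutant rests on the label. The cap marker Six2 reached 1 RPKM in 62 of 74 and 14 of 18 cap cells at E18.5 and E13.5, and the stromal collagen gene Col1a1 in 67 of 71 interstitium cells. Six2 was also found in 19 of 71 interstitium cells. Endothelial, immune, erythroid and ureteric markers were at or near 0 in most cells of every group: the summed RPKM of the 8 endothelial markers, of the 7 immune and of the 5 erythroid markers with an entry had a median of 0 in all 5 groups, as had ureteric epithelium markers in all groups but interstitium, where the median was 0.737 RPKM. At least 1 of 8 neural and glial markers reached 1 RPKM in 25 of 44 E18.5 mutant, 33 of 71 interstitium, 48 of 74 E18.5 cap, 18 of 29 E13.5 mutant and 13 of 18 E13.5 cap cells. Their median sums lay between 0.896 RPKM in interstitium and 11.9 RPKM in E13.5 cap cells, with Elavl3 and Sox10 listed at 0 in every group. Mural cell markers had median sums of 34.1 RPKM in E18.5 mutant and 119.3 RPKM in interstitium cells and under 1 RPKM in the other groups; their part in the differences was not tested. Tbp, a gene of basal transcription, was detected in 4 of 44 E18.5 mutant, 39 of 71 interstitium, 34 of 74 E18.5 cap, 11 of 29 E13.5 mutant and 12 of 18 E13.5 cap cells, so a gene listed at 0 in a cell may have been missed there. A cell typically had 3643 detected genes (1 RPKM or more) among E18.5 mutant cells, 5178 among interstitium, 5210.5 among E18.5 cap, 4560 among E13.5 mutant and 5566 among E13.5 cap cells (medians). Sex, the date and the pool number in the sample titles moved with the groups, and each of the 5 groups had a date of its own. Of Xist and 4 Y-linked genes, Xist alone was found in 42 of 44 (E18.5 mutant), 67 of 74 (E18.5 cap) and 27 of 29 cells (E13.5 mutant), and Y-linked genes alone in 70 of 71 (interstitium) and 17 of 18 cells (E13.5 cap). Thus E18.5 mutant and cap cells shared a sex and not a pool, and E13.5 mutant and cap cells shared a pool number and not a sex. Date cannot be told apart from group in any comparison, nor sex in any comparison other than E18.5 mutant with E18.5 cap and E18.5 with E13.5 mutant cells, nor pool where E18.5 mutant cells or both ages enter.

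Nfib was high in both mutant groups and in interstitium and low in both cap groups. In E18.5 mutant cells Nfib ranged from 0.0289 to 387.0 RPKM with a median of 71.4, in interstitium cells from 0 to 300.8 with a median of 38.7, and in E18.5 cap cells from 0 to 114.0 with a median of 0.0700. In E13.5 cells labelled mutant it ranged from 0 to 363.7 RPKM with a median of 43.5, and in E13.5 cap cells from 0 to 324.1 with a median of 0.0568. The ranges of all groups overlapped. At E18.5, 43 of 44 mutant and 68 of 71 interstitium cells lay above the cap median. At E13.5, 26 of 29 cells labelled mutant did so, in the contrast that chose Nfib. Both cap medians are under 1 RPKM, so these counts can include cells with almost no Nfib. From the other side, 73 of 74 E18.5 cap cells lay below the mutant median and 72 below the interstitium median. At E13.5, 16 of 18 cap cells lay below the mutant median. These counts were not set beside those of other genes. Nfib reached 1 RPKM, the level taken here as detection, in 40 of 44 E18.5 mutant cells (90.9%, exact 95% Clopper-Pearson interval 78.3 to 97.5), 64 of 71 interstitium cells (90.1%, 80.7 to 95.9) and 17 of 74 E18.5 cap cells (22.97%, 13.99 to 34.2). At E13.5 it did so in 26 of 29 cells labelled mutant (89.7%, 72.7 to 97.8) and 5 of 18 cap cells (27.8%, 9.70 to 53.5). These intervals cover counting error only. The 5 positive E13.5 cap cells held 324.1, 103.0, 15.69, 15.24 and 2.771 RPKM, so the cap cell with the most Nfib was within the range of the mutant cells. The cells at 324.1 and 103.0 held Pax2 at 0.282 and 0 RPKM, Six2 at 1.216 and 0.137, and Col1a1 at 67.3 and 88.4. The cell at 15.69 held Six2 at 116.3 RPKM and Col1a1 at 1.023. The E18.5 cap cell at 114.0 RPKM had Six2 and Pax2 at 0 and Col1a1 at 28.85, and the next, at 41.86, had Six2 at 66.5. What these high cap cells are was not tested.

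On the scale used for all comparisons, the mean over cells of log2(RPKM + 1), Nfib stood at 5.34 ± 2.46 (SD, n = 44 cells) in E18.5 mutant, 4.79 ± 2.08 (n = 71) in interstitium and 0.76 ± 1.38 (n = 74) in E18.5 cap cells. At E13.5 it stood at 5.13 ± 2.45 (n = 29) in cells labelled mutant and 1.44 ± 2.59 (n = 18) in cap cells. The differences were 4.58 for mutant minus cap at E18.5 and 4.04 for interstitium minus cap at E18.5, each larger than the spread between cells (pooled SD 1.99 and 1.77). The E13.5 difference of mutant minus cap, which led to the choice of the gene, was 3.69 against a pooled SD of 2.52. Among the groups in order of their mean Nfib level, neighbouring groups differed by less than 1 pooled SD except at the step between interstitium and E13.5 cap cells, which was 3.36. E18.5 mutant, E13.5 mutant and interstitium cells therefore form an upper set, and both cap groups a lower set, with no order within either set beyond the spread between cells; the place of the E13.5 mutant cells follows from how the gene was chosen.

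**Figure D1:**
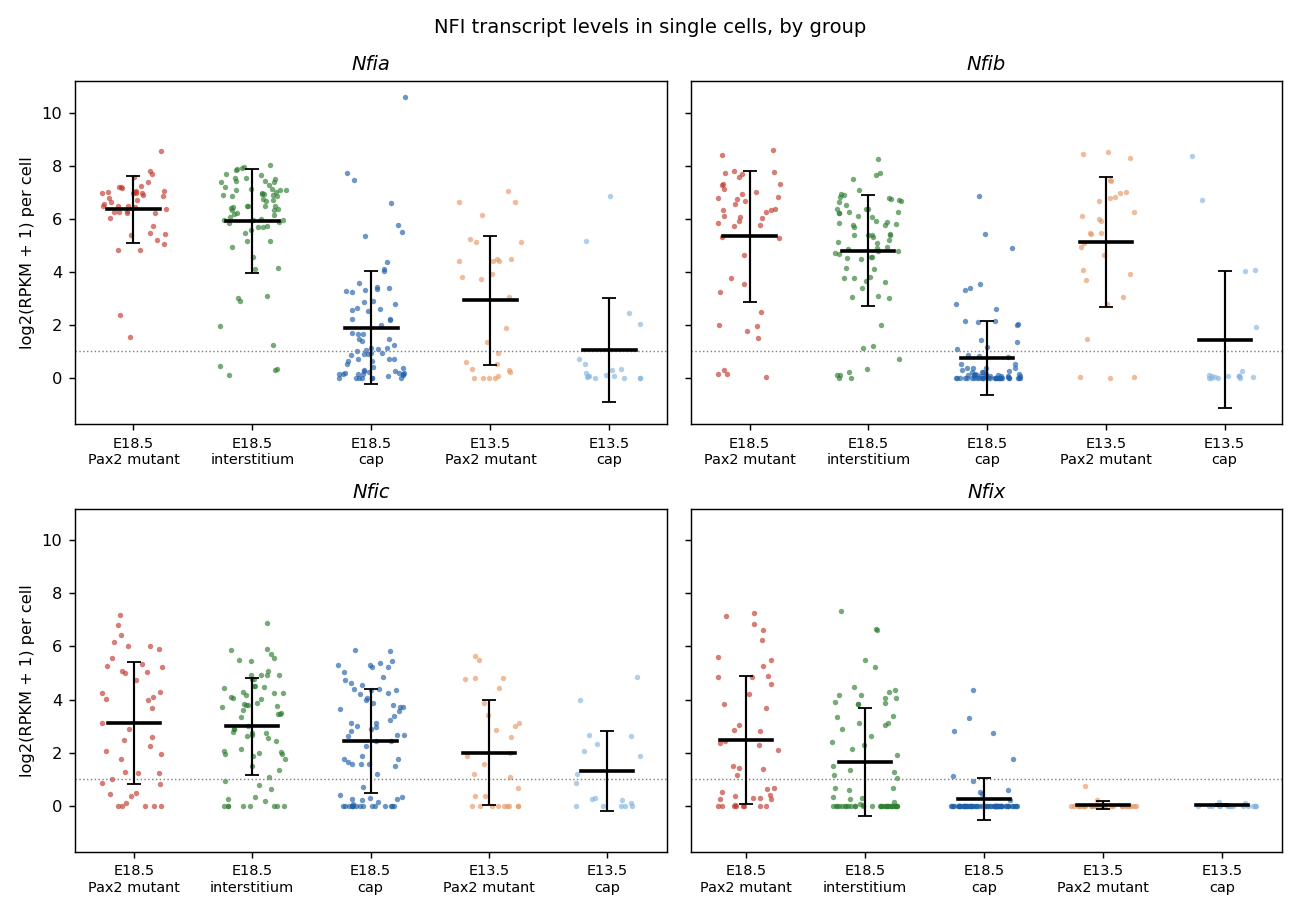
Level of each NFI gene in every cell, as log2(RPKM + 1) on the vertical axis, for the 5 groups on the horizontal axis. Points are cells, the thick line is the mean and the bar 1 SD between cells, and the dotted line marks 1 RPKM; Nfib is high in both mutant groups and in interstitium, Nfia is highest at E18.5, Nfic overlaps in every group, and Nfix lies above the dotted line in 26 E18.5 mutant, 32 interstitium and 6 E18.5 cap cells.

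Nfia was likewise high in E18.5 mutant and interstitium cells and low in E18.5 cap cells, and in E13.5 cells labelled mutant it stood in between. It ranged from 1.898 to 377.8 RPKM with a median of 96.1 in E18.5 mutant cells, from 0.0856 to 258.8 with a median of 87.1 in interstitium cells, and from 0 to 1551.2 with a median of 1.146 in E18.5 cap cells. The highest value of the whole family, 1551.2 RPKM, thus came from an E18.5 cap cell, and the next cap cell held 212.3. All 44 E18.5 mutant cells had Nfia above the cap median and all 44 reached 1 RPKM (100%, 92.0 to 100), as did 67 of 71 interstitium cells (94.4%, 86.2 to 98.4) and 40 of 74 E18.5 cap cells (54.1%, 42.1 to 65.7). At E13.5 Nfia ranged from 0 to 132.3 RPKM with a median of 12.25 in cells labelled mutant and from 0 to 115.8 with a median of 0.114 in cap cells. It reached 1 RPKM in 18 of 29 mutant cells (62.1%, 42.3 to 79.3) and in 4 of 18 cap cells (22.2%, 6.41 to 47.6), which held 115.8, 35.23, 4.524 and 3.051 RPKM.

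Mean log2(RPKM + 1) of Nfia was 6.35 ± 1.26 (SD, n = 44 cells) in E18.5 mutant, 5.92 ± 1.95 (n = 71) in interstitium, 1.90 ± 2.12 (n = 74) in E18.5 cap, 2.93 ± 2.43 (n = 29) in E13.5 mutant and 1.05 ± 1.96 (n = 18) in E13.5 cap cells. The difference was 4.45 for mutant minus cap at E18.5 (pooled SD 1.74) and 4.02 for interstitium minus cap (pooled SD 2.04), both beyond the spread between cells. At E13.5 it was 1.87 for mutant minus cap, within the pooled SD of 2.21. Neighbours in the order of levels were separated by more than 1 pooled SD only between interstitium and E13.5 mutant cells, a step of 2.99. E13.5 mutant cells thus stood next to the E18.5 cap cells in the order for Nfia.

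Nfic was found in every group at a low level. Its median was 7.116 RPKM (range 0 to 144.9) in E18.5 mutant cells, 9.153 (0 to 117.9) in interstitium cells and 5.28 (0 to 57.83) in E18.5 cap cells. At E13.5 the median was 1.996 RPKM (0 to 49.01) in cells labelled mutant and 0.509 (0 to 27.69) in cap cells. The ranges overlapped almost entirely. Detection was 33 of 44 E18.5 mutant, 57 of 71 interstitium, 50 of 74 E18.5 cap, 17 of 29 E13.5 mutant and 8 of 18 E13.5 cap cells, so that Nfic was the member found in the largest share of cap cells at each age. The means on the log2 scale were 3.11 ± 2.29, 2.99 ± 1.83, 2.44 ± 1.95, 1.999 ± 1.97 and 1.29 ± 1.51 in the same order (SD between cells), and no neighbouring pair differed by more than its pooled SD. Mutant minus cap was 0.68 at E18.5 and 0.71 at E13.5, and interstitium minus cap was 0.55.

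Nfix had the lowest median and mean of the members in each E18.5 group, and at E13.5 it was not detected. It had a median of 2.562 RPKM (range 0 to 153.2) in E18.5 mutant cells, 0.244 (0 to 162.0) in interstitium cells and 0 (0 to 19.68) in E18.5 cap cells. In these groups 26 of 44 (59.1%, 43.3 to 73.7), 32 of 71 (45.1%, 33.2 to 57.3) and 6 of 74 cells (8.11%, 3.03 to 16.8) reached 1 RPKM. None of 29 E13.5 mutant and none of 18 E13.5 cap cells did, which allows shares of up to 11.9% and 18.53%; the highest values were 0.689 and 0.110 RPKM. The mean log2 level was 2.46 ± 2.41 in E18.5 mutant, 1.63 ± 2.04 in interstitium and 0.25 ± 0.80 in E18.5 cap cells (SD, n = 44, 71 and 74 cells). Mutant minus cap at E18.5 was 2.21, beyond the pooled SD of 1.79, and interstitium minus cap was 1.38, within the pooled SD of 1.55. An opposite-strand gene, G430095P16Rik, overlaps Nfix and reached 125.5 RPKM in a cell, and whether reads were assigned by strand is not stated, so reads of these genes may not be told apart. It was found in 2 E18.5 mutant, 2 interstitium, 2 E18.5 cap and no E13.5 cells.

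Set against all other genes, Nfia and Nfib stood near the top in the comparisons of E18.5 mutant and of interstitium cells with cap cells. In mutant minus cap at E18.5, 3 of the 4 members (Nfia, Nfib and Nfix) were higher by 1 log2 unit or more, where 4.51% of the 11100 genes tested were so and the median of all genes was -0.40. Nfib stood at rank 27, Nfia at 32, Nfix at 148 and Nfic at 831, counted from the largest positive difference. Nfix was detected in 8.11% of the cap cells and passed the filter through the mutant cells alone, so its place in the count follows in part from the filter. In interstitium minus cap, Nfia, Nfib and Nfix were higher by that amount, against a background of 5.94% of 11219 genes and a median of 0.01, with Nfib at rank 22, Nfia at 23, Nfix at 346 and Nfic at 1707. Here too Nfix passed the filter through the interstitium cells alone. Both comparisons use the same 74 cap cells, so their values are given side by side and are not separate evidence. In mutant minus interstitium at E18.5 no member reached 1 log2 unit in either direction. The background there was 2.05% higher and 23.4% lower of 10903 genes. The 4 members differed by 0.43 (Nfia), 0.54 (Nfib), 0.12 (Nfic) and 0.83 (Nfix), each within the pooled SD and each above the median of all genes, -0.41.

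At E13.5, 2 of the 3 members that passed the filter on low values were higher by 1 log2 unit in mutant minus cap, beside a background of 1.43% of 11449 genes; nothing is read from that count, since this contrast chose Nfib. Nfix did not pass. Nfia stood at rank 31 and Nfic at 421, and the median of all genes was -0.45. Each comparison tested the genes detected, at 1 RPKM, in 10% of the cells from either group.

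**Figure D2:**
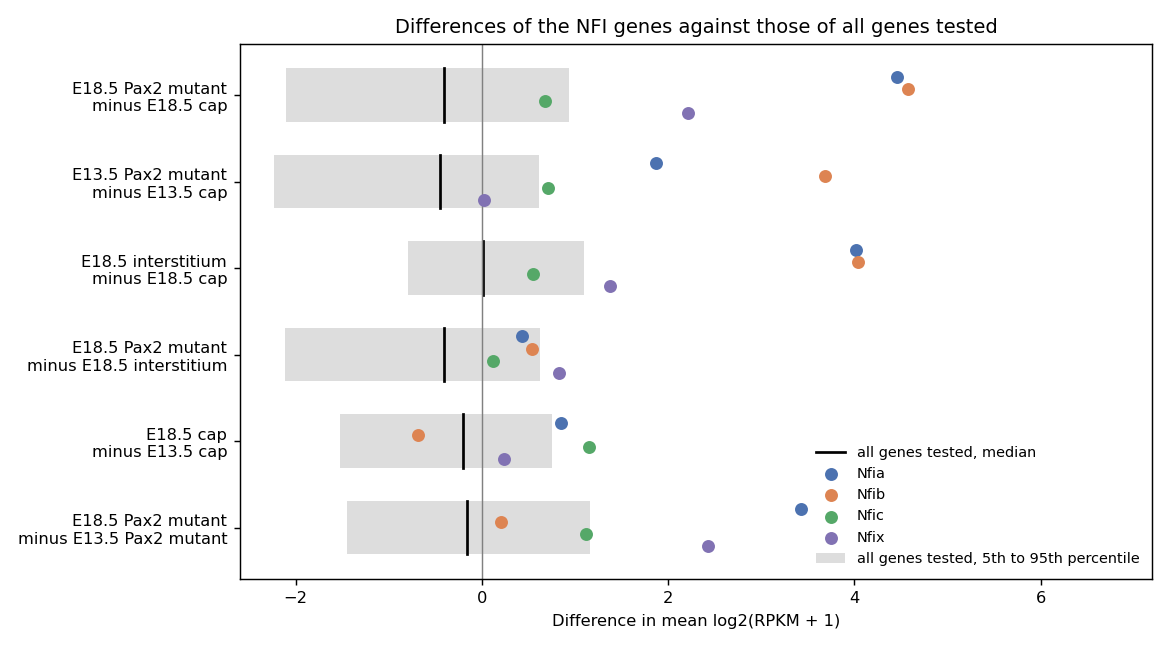
Difference in mean log2(RPKM + 1) on the horizontal axis for the 6 comparisons, listed from top to bottom, with 1 coloured point per NFI gene. The grey bar spans the 5th to the 95th percentile of all genes tested and the black line is their median; Nfia and Nfib lie far to the right of the bar in E18.5 mutant minus cap (4.45 and 4.58) and in interstitium minus cap (4.02 and 4.04), and all members lie between 0.12 and 0.83 in mutant minus interstitium.

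E18.5 mutant cells had fewer detected genes than E18.5 cap cells, and the differences were also taken over cells of either group with 3000 to 5000 detected genes. There mutant minus cap was 3.76 for Nfia, 4.47 for Nfib, 1.105 for Nfic and 2.59 for Nfix (n = 33 and 26 cells), so that Nfic also passed 1 log2 unit. Some interstitium cells share the number of pool 2 with the E18.5 cap cells, under another date, and over these 22 cells interstitium minus cap was 4.37 for Nfia, 3.68 for Nfib, 0.61 for Nfic and 1.13 for Nfix. Restricting the cap cells to those with Six2 at 1 RPKM or more gave E18.5 mutant minus cap differences of 4.96 for Nfia and 4.76 for Nfib.

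Several NFI genes were found together in most E18.5 mutant and interstitium cells and in few cells of the cap groups. At least 3 of the 4 genes reached 1 RPKM in 37 of 44 E18.5 mutant cells (84.1%, 69.9 to 93.4), 57 of 71 interstitium cells (80.3%, 69.1 to 88.8) and 10 of 74 E18.5 cap cells (13.51%, 6.68 to 23.5). At E13.5 this held for 10 of 29 cells labelled mutant (34.5%, 17.9 to 54.3) and 3 of 18 cap cells (16.7%, 3.58 to 41.4), whose intervals overlap. All 4 genes were present in 18 E18.5 mutant and 30 interstitium cells and in 1 E18.5 cap cell. Cells without any NFI gene numbered 0 of 44 E18.5 mutant, 4 of 71 interstitium, 6 of 74 E18.5 cap, 2 of 29 E13.5 mutant and 8 of 18 E13.5 cap cells. Fewer genes of any kind were detected in E18.5 mutant cells than in cap cells, and the part of the number of detected genes in these counts was not tested.

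**Figure D3:**
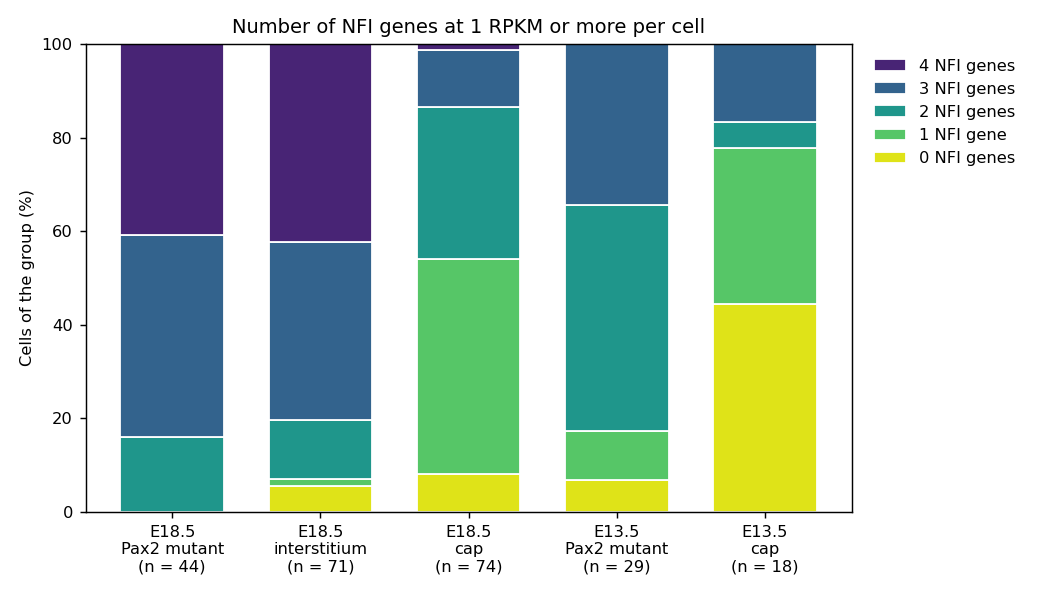
Percent of the cells of each group (vertical axis) in which 0, 1, 2, 3 or 4 of the NFI genes reached 1 RPKM, stacked, for the 5 groups. Cells with 3 or 4 members make up 84.1% (E18.5 mutant), 80.3% (interstitium), 13.51% (E18.5 cap), 34.5% (E13.5 mutant) and 16.7% (E13.5 cap).

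RPKM is scaled to transcript length, and on that basis the 4 members were set beside each other within a cell. The gene models that gave these lengths are not stated in the sources used here, so leading members and shares are approximate. Among cells with at least 1 member at 1 RPKM, Nfia was the highest member in 27 of 44 E18.5 mutant cells and 49 of 67 interstitium cells, and Nfib in 15 and 14. In E18.5 cap cells Nfic was highest in 37 of 68, Nfia in 20 and Nfib in 9. The leading member at E13.5 was Nfib in 18 of 27 cells labelled mutant, with Nfia in 7 and Nfic in 2; in the 10 E13.5 cap cells it was Nfib in 4, Nfic in 4 and Nfia in 2. The family of an E18.5 mutant or interstitium cell was thus mostly Nfia and then Nfib, that of an E18.5 cap cell mostly Nfic, and that of an E13.5 mutant cell mostly Nfib. Because Nfib was chosen on its E13.5 mutant minus cap difference, its lead in E13.5 mutant cells follows in part from the choice. Averaged over cells with equal weight, Nfia made up 46.95% of the summed NFI RPKM in E18.5 mutant, 56.5% in interstitium and 33.9% in E18.5 cap cells, and Nfic made up 11.8%, 9.50% and 51.4%. In E13.5 mutant cells Nfib made up 63.2% (SD between cells 30.8, n = 27).

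The mean over cells hides the weight of a single E18.5 cap cell. Summed over all 74 cap cells, Nfia made up 68.3% of NFI transcript, and without the cell at 1551.2 RPKM it made up 42.6%. That cell was listed at 0 for Nfib, Nfic, Nfix and Six2, held 1.647 RPKM of Pax2 and 1.061 RPKM of Col1a1, and had 4078 genes at 1 RPKM or more. Its level could not be checked against a second measurement of the cell.

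**Figure D4:**
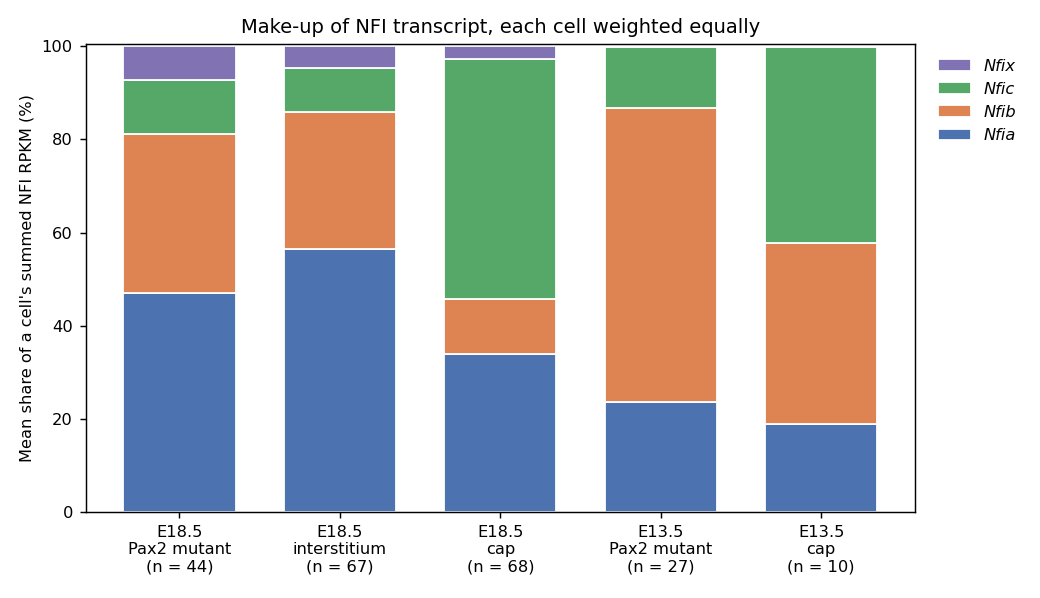
Mean share of a cell's summed NFI RPKM (vertical axis, percent) taken by each member, over the cells of each group with at least 1 NFI gene at 1 RPKM (n under each bar). Nfia takes the largest share in E18.5 mutant (46.95%) and interstitium cells (56.5%), Nfic in E18.5 cap cells (51.4%) and Nfib in E13.5 mutant cells (63.2%). The last share describes the choice of Nfib, which was made on E13.5 mutant minus cap values.

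Most E18.5 mutant and interstitium cells, and most E13.5 cells labelled mutant, held both Nfia and Nfib. In E18.5 mutant cells 40 of 44 had both genes, 4 had Nfia alone and none had Nfib alone. Among interstitium cells 64 of 71 had both, 3 had Nfia alone and none Nfib alone. Of the 29 E13.5 cells labelled mutant, 18 had both, 8 had Nfib alone and none had Nfia alone. With Nfia in 44 of 44 E18.5 mutant cells and Nfib in 26 of 29 E13.5 mutant cells, few or no cells could have held the other gene alone, and Nfib was chosen on its E13.5 values. E18.5 cap cells fell on both sides, with 12 of 74 holding both genes, 28 Nfia alone and 5 Nfib alone, and among 18 E13.5 cap cells 3 had both, 1 Nfia alone and 2 Nfib alone. In cells with either gene, Nfia minus Nfib in log2(RPKM + 1) averaged 1.02 ± 2.37 (SD, n = 44) in E18.5 mutant and -2.47 ± 3.13 (n = 26) in E13.5 mutant cells. The same quantity averaged 1.19 ± 1.84 (n = 67) in interstitium, 1.72 ± 2.74 (n = 45) in E18.5 cap and -1.32 ± 2.27 (n = 6) in E13.5 cap cells. Age and pool cannot be told apart here, because E18.5 mutant cells came from a pool of their own.

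**Figure D5:**
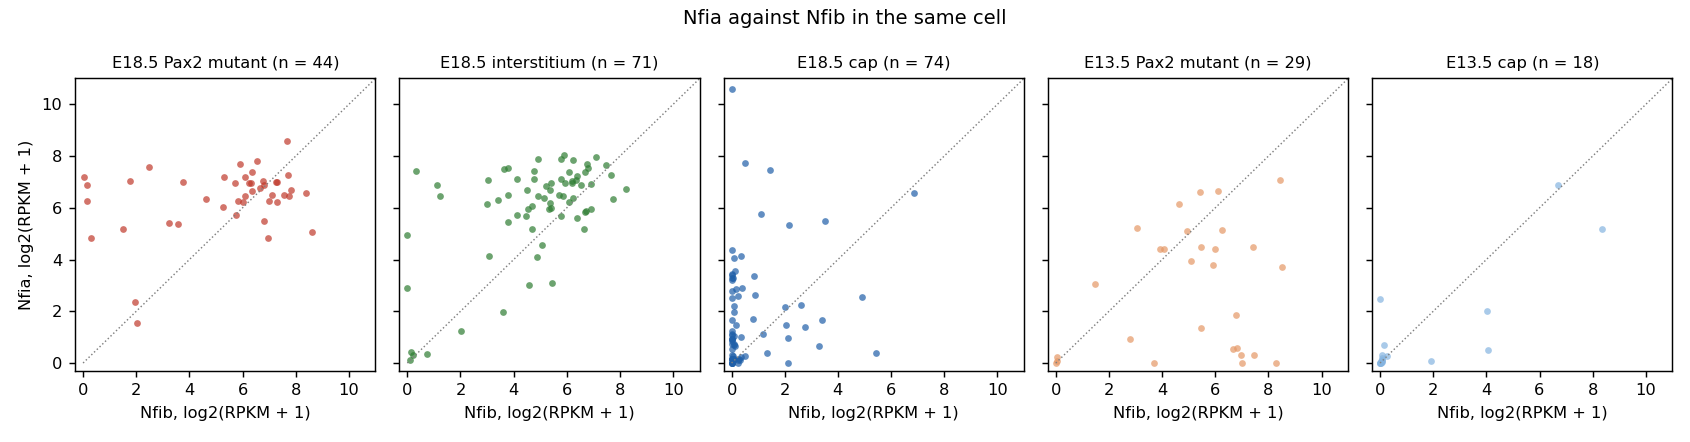
Nfia (vertical axis) against Nfib (horizontal axis) in the same cell, both as log2(RPKM + 1), with 1 panel per group and the dotted line at equal levels. E18.5 mutant and interstitium cells lie mostly on or above the line, while 18 of 26 E13.5 mutant cells with either gene lie below it.

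Across ages, the members of the mutant cells did not move alike. In E18.5 minus E13.5 mutant cells, 3 of the 4 members were higher by 1 log2 unit or more, against 6.69% of 10872 genes and a median of -0.16 over all genes. Nfix, detected in none of the 29 E13.5 mutant cells, passed the filter through E18.5 cells alone, which fixed its direction. Nfia differed by 3.43 and Nfix by 2.43, both beyond the pooled SD (1.94 and 1.71), Nfic by 1.11, within it (2.13), and Nfib by 0.21 (2.45). In E18.5 minus E13.5 cap cells only Nfic passed the amount, at 1.15 and within its pooled SD of 1.74, where 2.53% of 11423 genes were higher by as much. The other members differed by 0.84 (Nfia), -0.68 (Nfib) and 0.24 (Nfix, which did not pass the filter on low values). Of the 4 members, Nfib differed least between the ages in mutant cells, under every setting tried. All settings reuse the E13.5 mutant cells on which Nfib was chosen, so nothing is read from its place among the members.

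The E13.5 cells labelled mutant could be sorted by their own Pax2 reading, a division made after the values were seen and not given by the labels. Nfib reached 1 RPKM in 12 of 12 cells with Pax2 under 1 RPKM and in 14 of 17 cells with Pax2 at 1 RPKM or more, with medians of 50.8 and 43.5 RPKM. Nfia reached it in 11 of 12 and 7 of 17 cells, with medians of 27.5 and 0.511 RPKM. The mean log2 level of Nfia was 4.61 ± 1.73 (SD, n = 12) with Pax2 under 1 RPKM and 1.74 ± 2.16 (n = 17) with Pax2 at 1 RPKM or more. That of Nfib was 5.21 ± 1.75 and 5.07 ± 2.90. The stromal genes Col1a1 and Pdgfra were also detected in a larger share of the cells with Pax2 under 1 RPKM. Their part in the Nfia values was not tested. With only the 12 cells with Pax2 under 1 RPKM, E13.5 mutant minus cap was 3.56 for Nfia in place of 1.87, and 3.77 for Nfib. E18.5 minus E13.5 mutant was then 1.74 for Nfia in place of 3.43. An absent reading in a single cell may be a missed transcript, and what the Pax2 reading stands for was not tested.

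Stromal markers were common in E18.5 mutant and interstitium cells, and Pdgfra was found in few E13.5 cells. Among the few interstitium cells without Nfib, Pdgfra was found in 2 and absent in 5, and Col1a1 found in 4 and absent in 3. Only 4 E18.5 mutant cells lacked Nfib, and these had both markers. Of the cells with Nfib, 37 of 40 E18.5 mutant cells, 56 of 64 interstitium cells and 5 of 17 E18.5 cap cells also had Pdgfra, which encodes a growth factor receptor of stromal cells. At E13.5 it was 8 of 26 cells labelled mutant and 1 of 5 cap cells. Over all cells, Pdgfra was found in 41 of 44 E18.5 mutant, 58 of 71 interstitium, 8 of 74 E18.5 cap, 8 of 29 E13.5 mutant and 1 of 18 E13.5 cap cells, so in mutant cells its share was close to that among Nfib-positive cells. Col1a1 stood beside Nfib in 40 of 40, 63 of 64 and 6 of 17 cells at E18.5 and in 16 of 26 and 3 of 5 at E13.5, in the same order. At E13.5, 18 mutant cells therefore had Nfib without Pdgfra. Six2 stood beside Nfib in 1 of 40 E18.5 mutant cells, 14 of 64 interstitium cells and 11 of 17 E18.5 cap cells, and in 8 of 26 E13.5 mutant and 2 of 5 E13.5 cap cells. Top2a, a gene of dividing cells, was found in 2 of 40 Nfib-positive E18.5 mutant cells, 47 of 64 in interstitium and 17 of 17 in E18.5 cap cells; in E13.5 mutant cells it was 17 of 26. Counted without regard to Nfib, and in the same order, Top2a was found in 2 of 44, 53 of 71, 63 of 74 and 20 of 29. Its shares beside Nfib therefore mostly follow how common Top2a was in each group. Nfib was present in cells with and without this marker, and no relation of Nfib to division is read from these counts. In mutant minus cap, genes of S phase were lower by 1 log2 unit for 12 of 12 at E18.5 and 8 of 12 at E13.5, genes of the G2 and M phases for 11 of 12 at each age, and housekeeping genes for 6 of 10 at each age. Of all genes, 23.2% were lower by as much at E18.5 and 27.7% at E13.5, and 2 of the 10 housekeeping genes, Actb (1.41) and B2m (1.37), were higher at E18.5. The part of cell division and of RNA content in the NFI values was not tested.

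Lists of stromal genes give the setting. Of the stromal and fibroblast list, 10 of 12 genes tested were higher by 1 log2 unit in mutant minus cap at E18.5 (median 3.79) and 10 of 13 in interstitium minus cap (median 2.20). In mutant minus cap at E13.5 it was 3 of 12, with a median of 0.38. Over all genes, 4.51%, 5.94% and 1.43% were higher by as much in these comparisons. The nephrogenic interstitium list holds genes such as Foxd1 and Meis1, used as markers of the stroma around the nephron progenitors. In mutant minus cap it had 9 of 12 higher with a median of 2.001 at E18.5 and 1 of 11 with a median of 0.05 at E13.5. At E18.5, 1 gene of this list, Aldh1a2, was lower (-1.98). Meis1 was detected in 17 of 18 E13.5 cap cells and differed by -0.74 in E13.5 mutant minus cap, so it did not set stroma apart from cap at that age. The nephron progenitor list, which includes Six2 and Pax2, had 9 of 12 lower at E18.5 and 8 of 12 at E13.5, against 23.2% and 27.7% of all genes. The summed RPKM of 8 mural and smooth muscle markers had a median of 34.1 in E18.5 mutant, 119.3 in interstitium, 0.642 in E18.5 cap, 0.745 in E13.5 mutant and 0.141 in E13.5 cap cells. It was higher in the E18.5 groups with high Nfia and Nfib, and its part in the NFI values was not tested.

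Genes known as partners or targets of NFI proteins in other tissues were level or lower in E18.5 mutant cells and mixed in E13.5 cells labelled mutant. The list holds Ski, a co-regulator that binds NFI proteins, and genes reported as NFI targets or co-regulators in the nervous system. It was drawn up without a direction of regulation for its genes, so its counts and medians are no reading of NFI activity. Of its 11 genes 6 passed the filter in mutant minus cap at E18.5, and 0 were higher and 4 lower by 1 log2 unit, with a median of -1.41 beside -0.40 for all genes, of which 23.2% were lower by as much. The lower genes were Ezh2, a histone methyltransferase, by -3.75, the glutamate transporter gene Slc1a3 by -2.63, the Notch target Hes1 by -1.76 and Bbx by -1.05. At E13.5, 2 of 6 were higher and 2 lower in mutant minus cap, with a median of -0.36 beside -0.45. The transcription factor gene Sox9 was higher by 2.10 and Slc1a3 by 1.10, and Ezh2 differed by -2.08 and Bbx by -1.68, where 27.7% of all genes were lower by 1 log2 unit. Ski differed by 0.14 in E18.5 and by -0.14 in E13.5 mutant minus cap. Slc1a3 was thus lower in mutant cells at E18.5 and higher at E13.5, and Sox9 differed by 0.00 at E18.5. In interstitium minus cap, Slc1a3 differed by -1.997, Sox9 by -1.27 and Ezh2 by -1.15, against 2.70% of genes lower by as much. The glial marker Gfap was detected in 1 E18.5 mutant and 2 interstitium cells, and Mmd2 and Insc were listed at 0 in all 5 groups.

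NFI proteins have also been called CCAAT-box transcription factors, and the other families that go by this site were set beside them. Of the 9 NF-Y and C/EBP genes, 7 passed the filter in mutant minus cap at E18.5, of which 0 were higher and 3 lower by 1 log2 unit, with a median of -0.55, against 4.51% higher and 23.2% lower among all genes. The lower genes were Nfyb (-1.66), Nfyc (-1.29) and Cebpz (-1.16); over cells in which each gene was above 0, Nfyb was at 0.19 and Cebpz at 0.076. At E13.5, 0 of 6 were higher and 1 was lower, and in interstitium minus cap 1 of 6 was higher (Nfyc, 1.03) and 0 lower. Cebpb was detected in 14 of 44 E18.5 mutant cells, 6 of 71 interstitium cells and 1 of 74 E18.5 cap cells, a difference of 0.67 for mutant minus cap.

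The genes whose levels went most closely with each NFI gene were sought over all 236 cells among the 7598 genes that were detected in 20% of them. The cells share libraries, pools and depth and differ by group, so these Pearson correlations of log2(RPKM + 1) are descriptions. For Nfia they included the fibrillar collagen genes Col3a1 (0.80), Col1a2 (0.79) and Col1a1 (0.77) and the growth factor receptor gene Pdgfra (0.73). For Nfib they were Col1a1 (0.65), Col3a1 (0.63), Col1a2 (0.62) and the near-identical pair Plac9b and Plac9a (0.60 each), whose reads cannot be told apart. For Nfix they were Postn (0.55), Dcn (0.53), Plac9b, Plac9a and Col5a2 (0.51 to 0.52). Taken within groups and averaged over the 5 groups, the same measure was 0.60 for Col3a1 and 0.56 for Col1a2 with Nfia, and 0.41 for Anxa2 and 0.39 for Col1a1 with Nfib. With Nfix it was 0.20 for Postn, 0.18 for Dcn, 0.085 each for Plac9b and Plac9a, and 0.28 for Col5a2. The values of Nfix over all cells thus rest largely on differences between groups. Nfic had no gene above 0.31 over all cells, which in sparse data is no finding.

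Between members, the correlation over all cells was 0.63 for Nfia with Nfib, 0.46 for Nfia with Nfix and 0.24 for Nfia with Nfic. Within groups Nfia with Nfib gave 0.33 in E18.5 mutant, 0.60 in interstitium, 0.22 in E18.5 cap and 0.21 in E13.5 mutant cells. The 0.84 of the E13.5 cap cells came from 18 cells, of which 12 had neither gene at 1 RPKM.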

How the data were processed

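RNA of single kidney cells was sequenced after sorting and Fluidigm C1 capture, per the labels' protocols. The authors deposited 1 table of RPKM for 237 cells; reads were aligned to mm10 with TopHat, per the submitters' processing notes. TopHat's version, the gene models, the counting rule and its use of strand are not given in the sources used here. No counts were used, so depth per cell is unknown; the count of detected genes (1 RPKM or more) was used as a proxy. All columns matched a sample by title, and no 2 cells had identical values.

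Cells were grouped by source name, genotype and age; 1 cell whose labels disagree entered no comparison. Levels are the mean of log2(RPKM + 1) over cells; a fold on this scale understates the change of low genes. A difference of 1 log2 unit was the size rule, and the genes tested were those at 1 RPKM in 10% of the cells of either group. The median of all genes is printed beside each comparison. Intervals are exact 95% Clopper-Pearson intervals. Alternatives changed the pseudocount (0.1, 10), the scaling, the detection level, the filter and the cells used, and the script was tested on simulated data. Genes named are the NFI genes, Pax2, the members of 17 lists and the 5 genes most correlated with each NFI gene, of which some results are not reported here; G430095P16Rik was named because it overlaps Nfix. Members and lists were chosen with earlier results of these data known. No doublet caller was used. Python 3.11.15, numpy 2.4.6, pandas 2.3.3, scipy 1.17.1 and matplotlib 3.10.9 were used. Sequences were read from GENCODE M21.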

Additional observations from a re-analysis of the deposited data

Results flagged for a closer look

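Nfib differed by 0.21 in E18.5 minus E13.5 mutant cells and by -0.68 in E18.5 minus E13.5 cap cells (mean log2(RPKM + 1)), so the direction between the ages was opposite in mutant and cap cells. The difference between these contrasts was not tested, both values lie within the spread between cells (pooled SD 2.45 and 2.07), and date and pool cannot be told apart from age in either. Sex cannot be told apart from age in the cap contrast, while the mutant groups shared a sex. The E13.5 values that enter both contrasts are also those on which Nfib was chosen.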

How the results depend on the processing

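No paired analysis was possible because the labels link no cells across groups. Of 16 alternatives to the lists of the 5 most correlated genes, 9 kept 4 or 5 of the genes and 7 kept 3 or fewer. Of 220 alternatives to the NFI differences 209 moved the value by less than the spread between cells, 11 by more, and 0 changed its sign. Against the values in the report, a pseudocount of 10 gave 2.61 for Nfia and 2.45 for Nfib in E18.5 mutant minus cap and 1.95 for Nfib in interstitium minus cap, and a pseudocount of 0.1 gave 4.03 for Nfix in E18.5 mutant minus cap, 5.92 for Nfib in interstitium minus cap and 4.50 for Nfix in E18.5 minus E13.5 mutant cells. The log2 ratio of group mean RPKM, to which the cap cell at 1551.2 RPKM contributes, was 1.67 for Nfia in E18.5 mutant minus cap and 1.57 in interstitium minus cap, and 4.39 for Nfix in E18.5 minus E13.5 mutant cells. Over cells above 0 alone, Nfix gave 0.36 in E13.5 mutant minus cap and 1.59 in E18.5 minus E13.5 cap cells. The number of members at 1 log2 unit or more became 2 (main 3) with a pseudocount of 10 in E18.5 mutant minus cap (Nfix 0.89) and in interstitium minus cap (Nfix 0.49), and 4 in E18.5 mutant minus cap with the ratio of means or cells with 3000 to 5000 genes. It became 3 in E13.5 mutant minus cap (main 2) with the ratio of means, without cells high in the pseudogene LOC100503946, over cells above 0 or over cells with Pax2 under 1 RPKM. It became 1 in E13.5 mutant minus cap (main 2) and 1 in E18.5 minus E13.5 mutant cells (main 3) with a pseudocount of 10, 2 in E18.5 minus E13.5 mutant cells over cells above 0 or Pax2 under 1 RPKM, and 1 in E18.5 mutant minus interstitium (main 0) with a pseudocount of 0.1 or cells with 3000 to 5000 genes. In E18.5 minus E13.5 cap cells (main 1) it became 0 with a pseudocount of 10 and 2 with a pseudocount of 0.1, the ratio of means or cells above 0. Counting any value above 0 as detection, cells with 3 or 4 NFI genes made up 97.7% of E18.5 mutant, 47.3% of E18.5 cap, 62.1% of E13.5 mutant and 55.6% of E13.5 cap cells; at 5 RPKM the shares were 61.4% (E18.5 mutant), 66.2% (interstitium) and 4.05% (E18.5 cap). Over cells above 0, Nfyb (0.19) and Cebpz (0.076) in E18.5 mutant minus cap, Nfyb (0.50) in E18.5 mutant minus interstitium and Nfyc (-0.038) in interstitium minus cap changed sign; for all of these the cause was not tested.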

Other observations

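A cell whose source name says cap mesenchyme and whose cell type label says interstitial entered no comparison. It held 0.0501 RPKM of Nfia, 0.0601 of Nfib, 3.715 of Nfic and 0 of Nfix, with 6570 genes at 1 RPKM or more.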
